A study of Drosophila melanogaster with 2 samples.

Results

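Across the genome of adult mushroom body (MB) neurons, 3004 open chromatin regions each covered an end of 1 annotated gene, that gene being protein-coding. They were chosen by position alone. Overlapping ATAC-seq peaks of the replicates were merged, merged regions with a peak from both replicates were kept as consensus regions, and those covering a start or end of exactly 1 gene of the RefSeq table, a protein-coding one, were taken. They made up 20.5% of 14656 consensus regions and are called one-gene regions here. A further 2778 regions (19.0%) covered ends of several genes, 396 (2.70%) covered an end of 1 gene of another kind, and 8478 (57.8%) covered no gene end. The gene table lists where genes begin and end on the chromosome without their strand, so that a covered end may be the transcription start or the last base of the gene. Whether a region is a promoter was therefore not tested.

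Chromatin accessibility had been measured by ATAC-seq in 2 biological replicates of naive control flies, which form 1 condition. Flies carried w* on the first chromosome, UAS-unc84::2xGFP over tubGal80(ts) on the second, and on the third the control transgene P{VALIUM20-mCherry.RNAi}attP2 over R14H06-Gal4. R14H06-Gal4 is driven by an MB enhancer of rut, and Unc84::GFP is a nuclear envelope tag with which nuclei were pulled down from pooled heads of 50 to 60 flies by anti-GFP beads (INTACT). The paper describes male flies for this isolation, and the age of the flies is not given for these samples in the sources used here. Since all samples share this genotype, there were no groups of flies to compare, and the values of both replicates are given as a description without a test.

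In ATAC-seq the transposase Tn5 inserts adapters where DNA is not wrapped in nucleosomes, so that fragments pile up over promoters, enhancers and insulators. Active promoters are usually kept free of nucleosomes just before the transcription start by transcription factors and remodelling complexes, and are open in most cell types for genes of general function. Enhancers are opened by combinations of transcription factors and differ more between cell types. In the compact genome of Drosophila, many genes have a neighbour close by, so that 1 open region can span the ends of several genes. One-gene regions are those that cover an end of only 1 gene, which does not show that the open chromatin acts on that gene.

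The deposited fold enrichment of a peak is the ratio of its signal to the local background as MACS2 computes it, so that 1 means no enrichment. One-gene regions had a median of 3.40 (quartiles 2.32 and 4.86) in replicate 1 and of 3.31 (quartiles 2.21 and 4.85) in replicate 2. The weakest and strongest regions lay at 1.21 and 11.3 in replicate 1 and at 1.21 and 11.0 in replicate 2. Pairs of values given for a gene or class are those of replicates 1 and 2. The median -log10 q-value was 272 in replicate 1 and 120 in replicate 2, and 2742 regions (91.3%) reached a -log10 q of 10 in both. A -log10 q grows with the number of reads, whereas fold enrichment is a ratio, and the paper's methods state more usable reads for replicate 1 than for replicate 2. The peak lists hold no read counts per region.

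Replicates gave nearly the same values. Pearson's r of log2 fold enrichment across the 3004 regions was 0.988 and Spearman's rho was 0.989. These describe regions of the same 2 libraries, which are not independent, and every region had to be called in both. The median ratio of replicate 1 to replicate 2 was 1.02, and 2906 regions (96.7%) differed by less than 1.2 times. The ratio ranged from 0.728 to 1.35, and replicate 1 was higher in 1926 regions. From the 5th to the 95th percentile the ratio went from 0.906 to 1.17. Differences of that size between regions are therefore within the usual spread of the replicates.

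**Figure D1:**
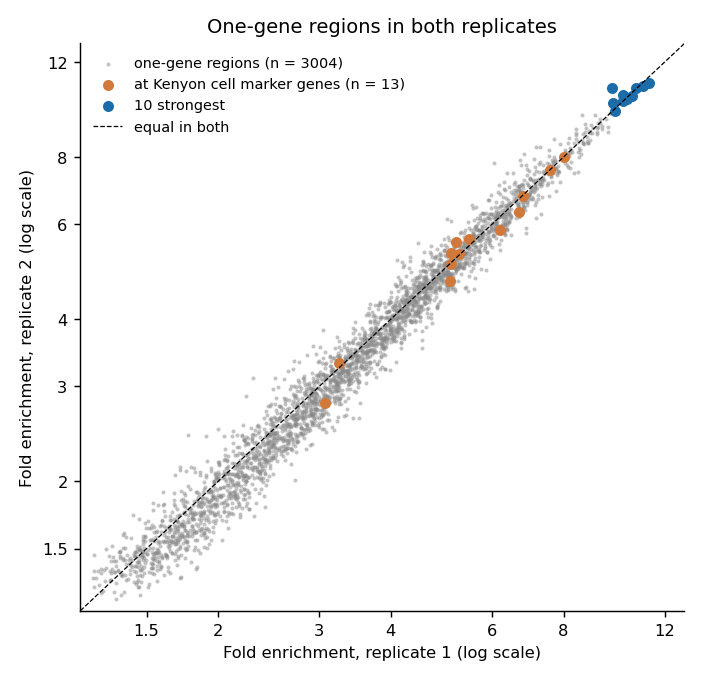
Fold enrichment over the local background of each one-gene region in replicate 1 (x axis) and replicate 2 (y axis), both on log scales, with the 10 strongest regions in blue, the 13 regions at Kenyon cell marker genes in orange and equal values along the dashed line. The points follow the dashed line over the whole range, with a Pearson's r of 0.988.

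The largest differences between replicates were found at weak to medium regions. The tetraspanin gene Tsp29Fb stood at 1.77 and 2.44, a log2 ratio of replicate 1 to replicate 2 of -0.46, and the cytochrome P450 gene Cyp6a16 had 2.30 and 3.11 (-0.44). In the other direction, Apoltp, which encodes a lipoprotein for lipid transfer, had 2.72 and 2.02 (0.43). CG10479 had 2.41 and 1.79, and CG7101 had 3.52 and 2.62, each with a log2 ratio of 0.43. No gene among the 10 strongest was part of this group.

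Most one-gene regions were single peaks. In 2902 regions each replicate had exactly 1 peak, and 102 held several peaks of at least 1 replicate. The regions belonged to 2951 genes, of which 2898 had 1 region and 53 had 2. A lower end (the smaller coordinate) was covered by 1482 regions, an upper end by 1498, and 24 regions covered both ends of their gene. Fold enrichment was close to equal at lower ends (3.36 and 3.25 in replicates 1 and 2) and upper ends (3.46 and 3.36), and strand could not be taken into account.

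The 10 strongest one-gene regions lay above 9.7 in both replicates, where the median of one-gene regions was below 3.5. In order of mean fold enrichment they lay at Sox21b (SoxB family; 11.3 and 11.0), mbl (a regulator of splicing; 11.0 and 10.8) and AGO2 (the Argonaute protein of the siRNA pathway; 10.7 and 10.7). Then came ap (LIM homeodomain; 10.5 and 10.4), the GATA factors pnr (10.2 and 10.4) and grn (10.3 and 10.2), and the Hox gene pb (9.72 and 10.8). They ended with esg (Snail family; 10.2 and 10.2), vvl (POU domain; 9.78 and 10.1) and opa (Zic family; 9.84 and 9.74). Apart from mbl and AGO2, these genes encode transcription factors, and no share of such genes among all genes was computed.

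These 10 regions were 732 to 1549 bp wide, and their summits lay on both sides of the gene end. The AGO2 region ran on 3L from 15553994 to 15554725 (732 bp, release 6), with its summit 212 bp inside the gene in both replicates. At pnr, on 3R from 16025548 to 16026402, the summit lay 88 and 101 bp outside the gene. At opa (3R from 4852071 to 4853141) it lay 349 and 358 bp outside, and at ap (2R from 5726000 to 5727548) 537 and 515 bp inside. The ap region was the widest of the 10, and only 23 bp of it lay beyond the gene. The pb region, on 3R from 6741467 to 6742640, extended 597 bp into the gene and 577 bp out of it. Apart from esg, which is 2273 bp long, vvl (4784 bp) and AGO2 (6930 bp), these genes are longer than 15 kb.

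The next 20 regions by mean fold enrichment were named after their values were seen, so that no kind of gene is read as frequent among them. They included the immunoglobulin genes beat-Vb (9.25 and 9.40), beat-Ia (9.56 and 8.91) and dpr16 (8.73 and 9.20), and robo2, a receptor of the guidance cue Slit (9.16 and 8.91). The leucine-rich repeat genes trn (8.61 and 9.57) and Fili (8.93 and 9.16) and the synaptic adhesion gene Nlg4 (8.96 and 8.87) were also there, as were the potassium channel gene KCNQ (9.56 and 9.09) and the myosuppressin receptor gene MsR1 (9.14 and 8.82). Genes of transcription factors in this range were mid (T-box; 9.65 and 9.65), retn (ARID; 9.08 and 9.59), the homeobox genes Gsc (9.26 and 9.26) and otp (9.19 and 9.25), and pdm3 (POU domain; 9.35 and 9.02). Others were skl, a pro-apoptotic gene (9.66 and 9.66), raw, a brake on JNK signalling (9.49 and 9.40), Lamp1, for a lysosomal membrane protein (9.14 and 9.04), the transporter gene Oatp74D (9.33 and 9.12), CG42788 (9.19 and 9.10) and CG13739 (9.02 and 9.04).

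The weakest one-gene regions were barely above background. The 5 lowest lay at CG7137 (1.22 and 1.27), CG3301 (1.25 and 1.24), the Integrator subunit gene IntS2 (1.26 and 1.25), Sc2 (1.24 and 1.29) and CG6683 (1.32 and 1.21). These were 159 to 411 bp wide, and the summits lay within 70 bp of the gene end in both replicates. CG3301 had a further region at its other end, with 2.07 and 1.93.

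Regions that covered several gene ends were stronger and wider than one-gene regions, and regions at no gene end were weaker and narrower. The median fold enrichment in replicates 1 and 2 was 3.40 and 3.31 in one-gene regions, against 3.87 and 3.78 in regions at several genes, 3.04 and 2.86 at other single genes, and 2.21 and 2.08 at no gene end. The median width was 1009 bp in one-gene regions, against 1577, 941.5 and 701 bp. Since a wide region covers an end more readily than a narrow one, and several ends more readily still, width took part in the choice of the classes, and these medians are a description.

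**Figure D2:**
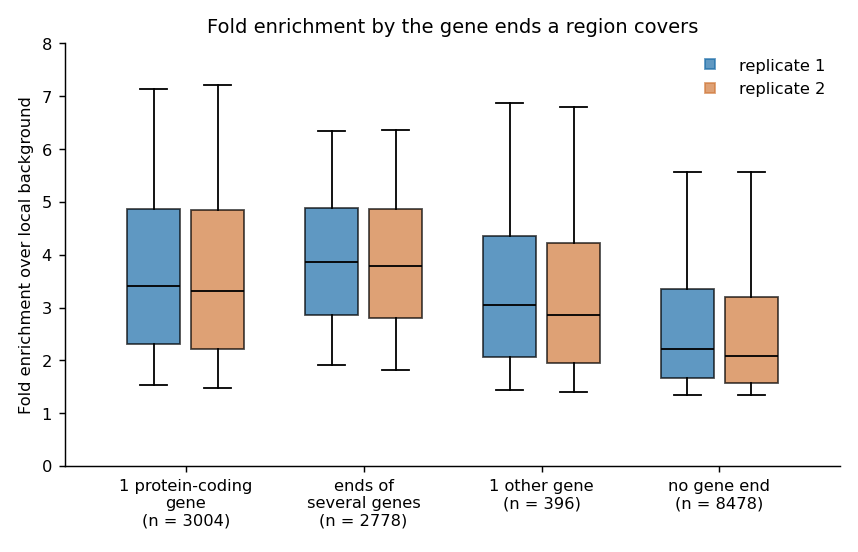
Fold enrichment over the local background (y axis) of consensus regions by the gene ends they cover (x axis), with replicate 1 in blue and replicate 2 in orange. Boxes show the quartiles and the median and whiskers the 5th to 95th percentile. The median of one-gene regions was 3.40 and 3.31, against 3.87 and 3.78 at several genes and 2.21 and 2.08 at no gene end.

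At matched width, one-gene regions were as strong as those at several genes or stronger. From 1001 to 1500 bp the median fold enrichment was 4.35 and 4.31 in 857 one-gene regions, against 3.54 and 3.47 in 836 regions at several genes and 3.36 and 3.22 in 1530 at no gene end. From 1501 to 2000 bp it was 4.79 and 4.79 in 380 one-gene regions, against 4.43 and 4.44 at several genes and 3.91 and 3.86 at no gene end. Above 2000 bp one-gene regions and those at several genes were nearly equal, with 4.34 and 4.35 against 4.32 and 4.32. Up to 500 bp all classes were weak, with 1.70 and 1.61 in 390 one-gene regions, against 1.62 and 1.53 in 2796 regions at no gene end. From 501 to 1000 bp the values were 2.76 and 2.62 in one-gene regions, against 2.31 and 2.22 at several genes and 2.33 and 2.17 at no gene end.

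Wider one-gene regions were stronger, up to a point. Spearman's rho of mean fold enrichment with width was 0.648 across the 3004 regions, which share libraries and a peak caller that sets both values. When the regions were split by mean fold enrichment into 4 sets of 751, the median width was 539 bp in the weakest set (1.24 to 2.26), 902 and 1228 bp in the next ones and 1337 bp in the strongest set (4.86 to 11.1). The widest were not the strongest. The region at upSET, for a chromatin protein of the SET domain family, spanned 5105 bp on 3L from 14001907 to 14007011, with a fold enrichment of 2.78 and 2.94, and nearly all of it (4885 bp) lay inside the gene. CG3638 (4585 bp; 2.45 and 2.43), CG5707 (4088 bp; 2.76 and 2.72), trbl, for a pseudokinase (4081 bp; 2.56 and 2.52), and fax, named for failed axon connections (4069 bp; 3.17 and 3.09), followed. A width of 2500 bp or more was reached by 97 one-gene regions.

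The narrowest region, at pot (zona pellucida domain protein), was 75 bp wide with 1.38 and 1.43. It was followed by those at sand, a potassium channel gene (107 bp; 1.25 and 1.38), and Pld3 (108 bp; 1.21 and 1.33). The last of the 5 narrowest lay at mol (110 bp; 1.42 and 1.43) and Duox (115 bp; 1.46 and 1.49), a maturation factor and the dual oxidase that it acts on.

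One-gene regions lay at long genes. The genes with such a region had a median length of 4683 bp, against 2570.5 bp for genes covered only by regions that they share with other genes, 1461 bp for genes with no consensus region at either end, and 2163 bp for all protein-coding genes. Of 13922 protein-coding genes on the chromosome arms, 7825 (56.2%) had a consensus region over an end and 2951 (21.2%) had a one-gene region. In genes of up to 1 kb these shares were 27.4% and 6.46%, and in genes over 50 kb they were 82.7% and 56.4%, with all bands in between in order. The distance to the next gene was not compared between these bands over all genes.

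Fold enrichment also rose with the length of the gene. Its median in replicates 1 and 2 was 2.52 and 2.31 in 173 regions at genes of up to 1 kb, 2.57 and 2.44 at genes of 1 to 2 kb, and 3.07 and 2.94 at 2 to 5 kb. It was 3.80 and 3.74 at 5 to 10 kb, 4.06 and 3.98 at 10 to 20 kb, 4.48 and 4.56 at 20 to 50 kb, and 4.97 and 4.99 in 178 regions at genes over 50 kb. The median about doubled over this range in each replicate, and the order of the bands was the same in both. Spearman's rho of mean fold enrichment and gene length was 0.405. The boxes of neighbouring bands overlapped widely, and short genes with strong regions were also found.

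**Figure D3:**
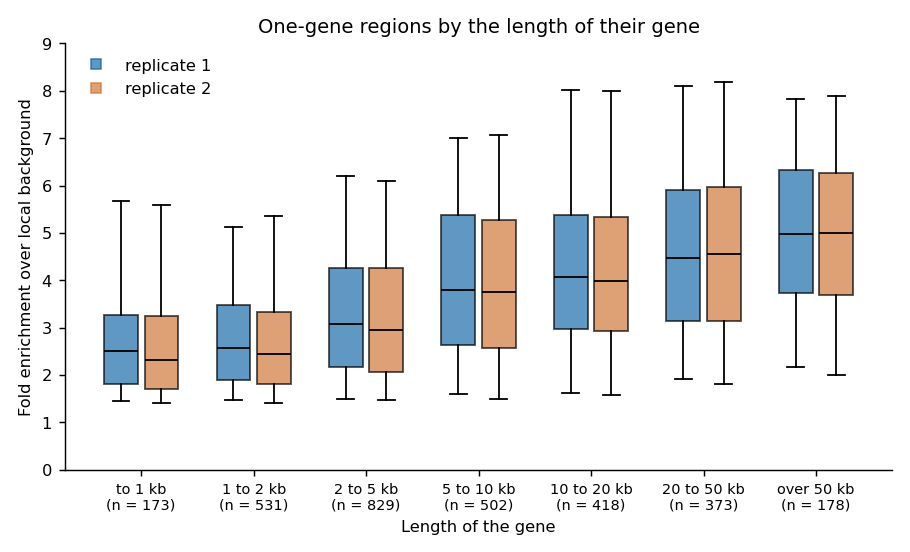
Fold enrichment over the local background (y axis) of one-gene regions by the length of their gene (x axis), with replicate 1 in blue and replicate 2 in orange; boxes show the quartiles and the median and whiskers the 5th to 95th percentile. The median was 2.52 and 2.31 at genes of up to 1 kb and 4.97 and 4.99 at genes over 50 kb.

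Width and the distance to the next gene moved with gene length, and the relation was looked at within 1 band of width and 2 bands of distance. Among regions of 1001 to 1500 bp, the median was 3.64 and 3.59 at genes of up to 1 kb (40 regions), 3.41 and 3.20 at 1 to 2 kb (111 regions), and 5.55 and 5.48 at genes over 50 kb (58 regions). Where the next gene end lay within 1 kb of the covered end, it was 2.52 and 2.38 at genes of up to 5 kb, 3.69 and 3.63 at 5 to 20 kb and 3.79 and 3.64 at longer genes. Where no other gene end lay within 5 kb, the same bands gave 3.56 and 3.46, 4.31 and 4.20, and 5.37 and 5.48. Both the length of the gene and the distance to its neighbour thus went with stronger regions. Over all lengths, the median was 2.92 and 2.80 in 1406 regions with another gene end within 1 kb, and 4.24 and 4.18 in 236 with the nearest one at 5 to 10 kb. With none within 10 kb it was 5.001 and 4.99 (227 regions).

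Genes with more annotated transcripts had stronger regions as well, and they are also longer. The median was 2.75 and 2.62 in 1012 regions at genes with 1 transcript (median length 2141.5 bp), and 4.28 and 4.35 in 249 regions at genes with 6 to 10 transcripts (19790 bp). With over 10 transcripts it was 4.16 and 4.23, in 72 regions. Gene length and the number of transcripts had a Spearman's rho of 0.562, and fold enrichment and transcripts one of 0.284, so that the part of each was not told apart.

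The longest genes illustrate the spread behind these medians. The region at lovit, which encodes a histamine transporter of photoreceptors, belonged to a gene of 434041 bp and was weak, with 2.31 and 2.36. CG17684 (396036 bp) had 3.52 and 3.36. The other 3 were strong: bru3, for a CELF family RNA-binding protein (281494 bp; 7.34 and 7.30), the SNARE gene Snap25 (225026 bp; 6.53 and 7.47) and l(3)80Fg (215672 bp; 7.27 and 7.83). In all 5 the summit of both replicates lay outside the gene or within 5 bp of its end.

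At the short end, CG44388 (175 bp) had 2.84 and 2.64, CG43351 (242 bp) had 3.60 and 3.67 and CG44198 (245 bp) had 3.47 and 3.51. Mtk (268 bp) and Dso2 (287 bp) encode antimicrobial peptides of the immune response. The Mtk region had 3.26 and 2.85 and the Dso2 region 1.99 and 1.84. Apart from Dso2, these regions were 610 to 1396 bp wide and so extended well beyond the gene.

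The 24 regions that covered both ends of their gene lay at short genes with a median length of 813.5 bp. Their median fold enrichment was 4.10 and 3.83 and their median width 1796.5 bp. A region can cover both ends only where it is at least as wide as the gene, so that short genes and wide regions follow from the definition. All one-gene regions of 1501 to 2000 bp had a median of 4.79 and 4.79. The strongest lay at RpS30 (6.81 and 6.55), on 3R from 20850349 to 20851491, and 3 further genes of ribosomal proteins were among them, RpL38 (5.01 and 6.13), RpL41 (5.08 and 5.25) and RpLP2 (3.91 and 3.82). Other housekeeping genes of this group were Fkbp12, a prolyl isomerase gene (4.99 and 4.62), QIL1, for a protein of mitochondrial cristae junctions (4.83 and 4.26), and Sumo, for a protein modifier (2.92 and 2.97). The share of ribosomal protein or housekeeping genes among all short genes was not computed. The odorant-binding protein gene Obp99b had 2.96 and 2.92. The weakest lay at CG42656, with 1.31 and 1.45.

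The summit, the base with the highest signal in a peak, lay close to the gene end and more often inside the gene than outside. Among the 2980 regions that cover 1 end, its median position was 30 bp inside the gene in replicate 1 and 21.5 bp inside in replicate 2. The quartiles reached from 150 bp inside to 83 bp outside in replicate 1 and from 145 bp inside to 92 bp outside in replicate 2. It lay within 200 bp of the end in 72.7% and 72.0% of the regions and outside the gene in 41.1% and 42.8%. In 243 and 246 regions it was more than 500 bp away. Replicates placed it on the same side of the end in 2740 regions (91.9%), with a median gap of 23 bp between their summits, and within 50 bp of each other in 2159 of all 3004 regions (71.9%). In 23 regions the summits were more than 500 bp apart, such as at fax, where they lay 193 and 2987 bp inside the gene. Since each region had to cover the end and no end of another gene, the rule took part in these positions, which are a description.

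**Figure D4:**
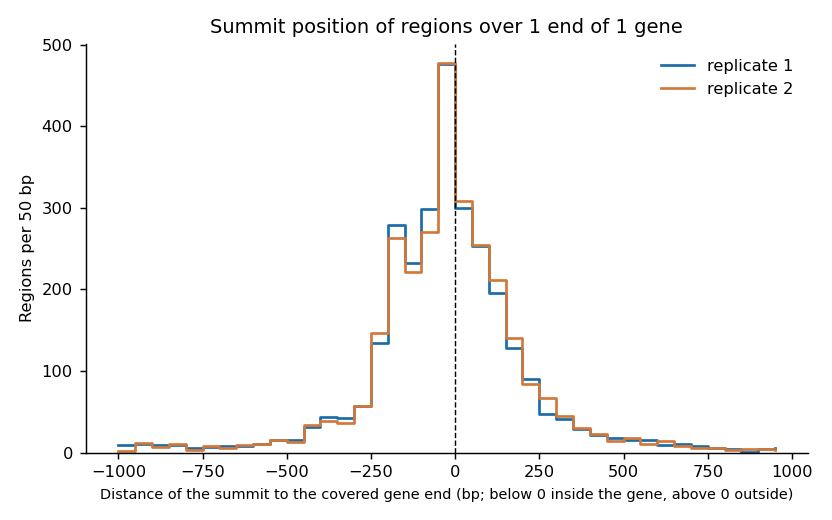
Number of one-gene regions per 50 bp (y axis) by the signed distance of the peak summit to the covered gene end in bp (x axis, below 0 inside the gene), for the 2980 regions over 1 end in replicate 1 (blue) and replicate 2 (orange). Both replicates peak just inside the end, at a median of -30 and -21.5 bp, with a second, lower maximum at 150 to 200 bp inside.

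The distribution had a peak in the 50 bp just inside the end and a second, lower one 150 to 200 bp inside. Replicates 1 and 2 had 279 and 263 summits at 150 to 200 bp inside, against 233 and 221 at 100 to 150 bp inside and 128 and 140 at 150 to 200 bp outside. In wider bands of replicate 1, 780 summits lay up to 100 bp inside and 512 lay 101 to 200 bp inside, against 552 and 322 at the same distances outside. In replicate 2 these numbers were 757 and 484 inside and 560 and 344 outside. The summits 101 to 200 bp inside belonged to shorter genes, with a median length of 2886.5 bp in replicate 1 and 3042.5 bp in replicate 2, against 9178.5 and 7632 bp for those 101 to 200 bp outside. Without strand, it cannot be told apart how many of these lie behind a transcription start and how many before the last base of a gene.

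The regions as a whole were also shifted into the gene. A median of 622.5 bp lay inside and 297 bp outside, and 2065 regions (69.3%) had more bases inside than outside. A region that reaches out to an end of a neighbouring gene is not a one-gene region, so that the rule took part in this shift. In 1406 regions another gene end lay within 1 kb of the covered end. Within the peak itself the summit was nearly central. It lay at a median of 50.7% of the peak in replicate 1 and 51.2% in replicate 2, and between 25% and 75% of the peak in 73.6% and 75.6% of the regions.

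Above 5 kb, the summit was more often outside in longer genes. The share of summits outside was 65.7% and 68.0% at genes over 50 kb and 55.5% and 58.7% at 20 to 50 kb, 47.1% and 47.8% at 10 to 20 kb and 33.1% and 32.5% at 5 to 10 kb. Below 10 kb there was no such order, with 35.5% and 37.0% at 2 to 5 kb, 31.7% and 35.7% at 1 to 2 kb and 49.0% and 49.7% at genes of up to 1 kb. The next gene limits how far a one-gene region can extend outside. Its distance moved with gene length and was not held equal here. Strength had less to do with the side. The share was 41.3% and 41.5% in the weakest 751 regions and 44.5% and 48.0% in the strongest 751. The stronger regions did have summits further from the end, with 64.7% and 64.5% within 200 bp in the strongest set and 84.2% and 83.3% in the weakest, whose regions were narrower.

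Most genes with a one-gene region had a consensus region at 1 end only. Of the 2980 regions over 1 end, 2596 (87.1%) had no consensus region at the other end of the gene, and 278 had one there that covers ends of several genes. The remaining 106 formed the 53 genes with a one-gene region at each end. These genes had a median length of 12405 bp. In their regions the summit lay outside the gene in 67.9% and 70.8%, against 40.1% and 42.0% in regions whose gene had none at the other end.

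At these 53 genes the ends were unequal, and the stronger end was the same in both replicates in 52 of them. The stronger end was chosen by its mean, so that this count is a description of how well the replicates match. The stronger end had a median of 4.08 and 4.10 and the weaker one 2.41 and 2.28, with a median ratio of 1.68. In 18 genes the stronger end was at least 2 times the weaker one.

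The largest ratio, 4.10, was found at Drl-2, for a receptor tyrosine kinase of the Ryk family that binds Wnt5, with 6.37 and 6.47 at the upper end and 1.50 and 1.64 at the lower. At the Pax6 gene toy, the lower end had 8.01 and 7.99 and the upper end 2.20 and 2.13. Further unequal genes were p130CAS, for an adaptor of integrin signalling (4.88 and 4.59 against 1.27 and 1.30), the cytoplasmic actin gene Act42A (4.96 and 5.37 against 1.57 and 1.49) and gw, for the GW182 protein of microRNA silencing (4.94 and 4.90 against 1.74 and 1.64). The homeobox gene cad had 6.43 and 6.26 against 3.04 and 2.72. At the other Pax6 gene, ey, the ends were closer, with 3.25 and 3.31 at the lower end (696594 to 697958 on chromosome 4) and 2.70 and 2.41 at the upper (720252 to 721292).

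Some one-gene regions lay inside another gene. The covered end of 355 regions (11.9%) fell within the span of another gene, and these had a median of 2.89 and 2.80, against 3.47 and 3.39 in the 2625 others.

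One-gene regions on chromosome 4 were stronger than those on the other arms, and so were its consensus regions as a whole. The 48 regions there had a median of 4.33 and 4.35, against 3.12 and 2.96 on X (472 regions) and 3.26 to 3.55 on the arms of chromosomes 2 and 3 in either replicate. They made up 34.5% of the 139 consensus regions of chromosome 4, against 18.9% to 22.1% on the other arms. The genes of chromosome 4 with such a region were long, with a median of 11677.5 bp, against 4137.5 to 5151 bp elsewhere. The strongest were toy, CG11360 (8.34 and 7.47) and mGluR, for a metabotropic glutamate receptor (7.38 and 7.30), which were named after their values were seen. CaMKII, for a kinase of synaptic plasticity, had 4.13 and 4.23. All consensus regions of chromosome 4 together had a median of 3.19 and 2.97, against 2.73 and 2.59 on X and 2.67 to 2.85 in replicate 1 and 2.54 to 2.74 in replicate 2 on the arms of chromosomes 2 and 3. Males have a single X chromosome, and how this bears on values of X was not tested.

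Marker genes were used to check the labelled tissue. Kenyon cells are the intrinsic neurons of the MB, and all 18 genes of a list of their markers had a consensus region over an end, 13 of them a one-gene region. Beside this stand 56.2% and 21.2% of all protein-coding genes. These marker genes are long, with a median of 38745 bp, and length moved with both shares. Of all genes of 20 to 50 kb, 82.1% were covered and 51.6% had a one-gene region. The median fold enrichment of the 13 was 5.26 and 5.56, against 3.44 and 3.34 over all 2951 genes, taking the stronger region of each gene. Over all one-gene regions at genes of 20 to 50 kb it was 4.48 and 4.56.

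The transcription factor genes of this list spanned most of its range. Beside toy, the highest of the 13 with 8.01 and 7.99, Eip93F had 7.59 and 7.56, ab 6.80 and 6.78, dac 6.68 and 6.34 and chinmo 5.26 and 5.30, whereas ey, with 3.25 and 3.31, was second lowest of the 13. The Eip93F region ran on 3R from 21948255 to 21949608 with its summit 112 bp outside the gene in both replicates. The neuropeptide gene sNPF had 6.19 and 5.85. Receptors of the modulators of memory formed a close group, with 5.48 and 5.64 at Dop1R1, 5.20 and 5.56 at Dop1R2, both for dopamine receptors, and 5.09 and 5.06 at Oamb, for an octopamine receptor. The adenylyl cyclase gene rut had 5.08 and 4.70. As R14H06-Gal4 carries an enhancer of rut, reads from the transgene and from the gene cannot be told apart where they share sequence. Fas2, for an adhesion protein of MB axons, had 5.08 and 5.30, and mub, for an RNA-binding protein, was lowest with 3.07 and 2.80. Pka-C1, trio, prt, dnc and mamo were covered by regions that span ends of further genes.

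Pan-neuronal genes were covered as fully, against 56.2% of all protein-coding genes with a consensus region over an end and 21.2% with a one-gene region. They are also long, with a median of 27653 bp. Of all genes of 20 to 50 kb, 82.1% were covered and 51.6% had a one-gene region, and the median over regions at such genes was 4.48 and 4.56. All 9 pan-neuronal genes had a consensus region at an end, and 8 a one-gene region, with a median of 4.31 and 4.24. They reached from Snap25 down to cpx, for the SNARE regulator complexin (1.48 and 1.56), with the synaptobrevin gene nSyb at 4.85 and 5.05, the active zone gene brp at 4.60 and 4.58 and the sodium channel gene para at 2.73 and 2.88. The elav region was shared with another gene.

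Marker genes of other cell types were mostly without a consensus region at an end, where 56.2% of all protein-coding genes were covered. The share with a one-gene region, 21.2% of all protein-coding genes, was 30% in the glial list and lower in the other lists. Of 10 glial genes, 3 were covered, all by one-gene regions, namely the sugar transporter gene Tret1-1 (4.44 and 4.50), the receptor gene moody (3.18 and 2.86) and Eaat1, for a glutamate transporter (3.05 and 3.09). The genes repo and gcm were among the 7 glial genes without a covered end. Glial genes of the list had a median length of 5744.5 bp. Of all genes of 5 to 10 kb, 74.7% were covered and 32.9% had a one-gene region. Of 13 photoreceptor genes, only norpA was covered, by a shared region, and all rhodopsin genes of the list (ninaE, Rh3, Rh4, Rh5 and Rh6) were uncovered. None of 10 fat body and haemocyte genes had a consensus region at an end, and of 10 muscle genes only Mlc2 did (1.49 and 1.58). The median gene length was 3107 bp in the photoreceptor list, 2239.5 bp in the fat body and haemocyte list and 10230 bp in the muscle list. Whether the genes of these lists are in use in adult male heads was not tested. Their uncovered ends therefore do not measure how pure the nuclei were.

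**Figure D5:**
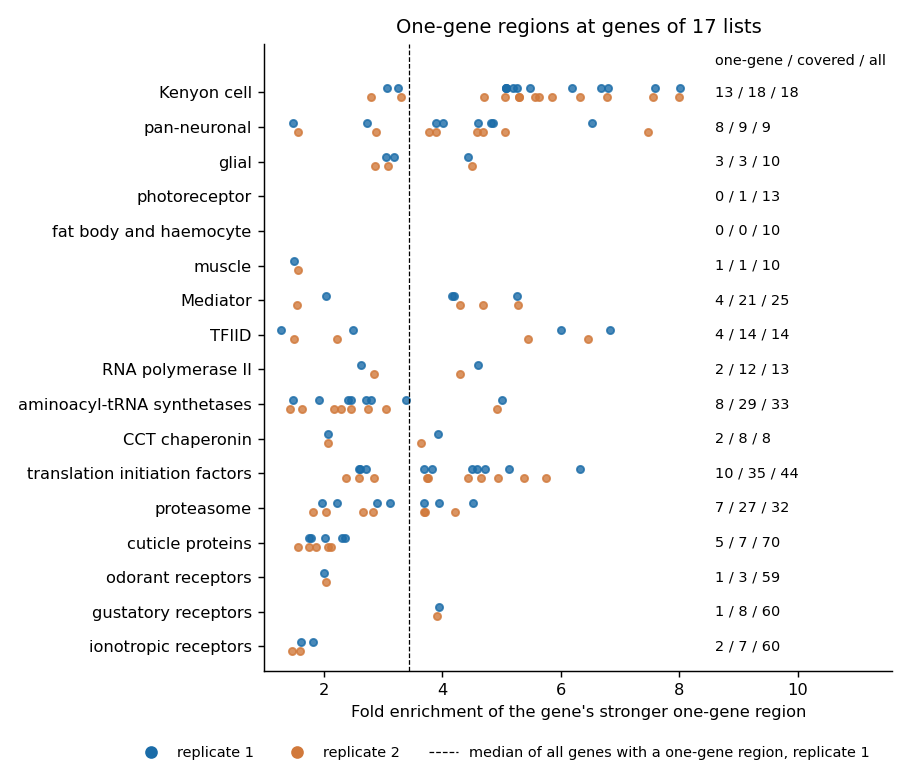
Fold enrichment (x axis) of the stronger one-gene region of each gene in 17 lists (rows), with replicate 1 in blue, replicate 2 in orange, and the median of all genes with such a region in replicate 1 as a dashed line. Numbers give the genes with a one-gene region, those with any consensus region over an end and all genes of the list, such as 13, 18 and 18 for Kenyon cell markers and 5, 7 and 70 for cuticle proteins.

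Genes of general function had open ends in most cases, and most of the covered genes lay only in shared regions, as did 4874 of the 7825 covered genes overall. Of 14 subunits of TFIID, which places RNA polymerase II at promoters, all 14 were covered and 4 had a one-gene region. The corresponding counts were 21 and 4 of 25 for Mediator, 12 and 2 of 13 for RNA polymerase II, 8 and 2 of 8 for the CCT chaperonin, and 27 and 7 of 32 for the proteasome. In the translation machinery they were 29 and 8 of 33 for aminoacyl-tRNA synthetases and 35 and 10 of 44 for initiation factors. These lists were thus covered in 79.5% to 100% of genes, against 56.2% of all protein-coding genes, and had a one-gene region in 15.4% to 28.6%, against 21.2%. Their genes are short, with medians from 970 to 2760 bp per list. Of all genes of up to 1 kb, 27.4% were covered and 6.46% had a one-gene region. These shares were 48.7% and 13.7% at 1 to 2 kb and 64.2% and 20.9% at 2 to 5 kb.

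Within these complexes, strength varied from gene to gene. In TFIID, Taf1 had 6.84 and 6.47 and Taf3 had a mean of 5.72, whereas Taf9 had 2.49 and 2.22 and Tbp, for the TATA-binding protein, 1.27 and 1.50. Among initiation factors, eIF3f1 was highest (6.33 and 5.76), followed by the cap-binding protein gene eIF4E1 (5.13 and 5.39), and eIF2alpha was lowest (2.59 and 2.37). The 10 initiation factor genes had a median of 4.17 and 4.10 and the 7 proteasome genes one of 3.12 and 2.84. The 8 aminoacyl-tRNA synthetase genes had a median of 2.58 and 2.38, and of these AspRS-m was highest (5.005 and 4.92) and the other 7 lay at 3.38 or below. In Mediator, MED14 had 5.27 and 5.27 and MED17 2.03 and 1.56.

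Families used in other tissues had few one-gene regions, against shares of 56.2% covered and 21.2% with a one-gene region over all protein-coding genes. Among 70 genes of cuticle proteins, 7 were covered and 5 had a one-gene region, with a median of 2.02 and 1.88 and a highest value of 2.36 and 2.07 at Cpr65Ea. Of 59 odorant receptor genes, 3 were covered and 1 had a one-gene region, Or47a with 2.00 and 2.03. Among 60 ionotropic receptor genes, 7 were covered, and Ir47a (1.62 and 1.46) and Ir75d (1.82 and 1.60) had a one-gene region. Of 60 gustatory receptor genes 8 were covered, and the only one with a one-gene region, Gr77a, was an exception in strength, with 3.95 and 3.91 at its upper end and 2.02 and 1.94 at its lower. Its summit lay 656 bp outside the gene in replicate 1. Genes of these families are short, with medians from 1093.5 to 1908 bp per list. Of all genes of 1 to 2 kb, 48.7% were covered and 13.7% had a one-gene region, against 27.4% and 6.46% of those up to 1 kb. One-gene regions were found at 7.14% of the cuticle protein genes, which is close to the share at genes of up to 1 kb, and at 1.67% to 3.33% of the receptor genes of each list, and 5.08% to 13.3% of the genes of each family were covered.

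Among the Trx target genes that the study chose with the help of these data, so that their coverage is not independent of them, Xrp1, for a stress-induced transcription factor, had a one-gene region. Its fold enrichment was 1.59 and 1.46.

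Genes known only by a CG number held 934 of the 3004 one-gene regions, and more of the weak ones. The share of such genes among all protein-coding genes was not computed. They made up 38.2% of the weakest 751 regions, 32.6% and 30.6% of the middle sets of 751 and 22.9% of the strongest 751. Gene length also differed between these sets, with a median of 2460 bp in the weakest and 10746 bp in the strongest, and was not held equal.

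Regions just inside and just outside the rule were weaker and narrower than the bulk of one-gene regions. The 846 one-gene regions with at most 100 bp on 1 side of the end had a median of 2.34 and 2.22, against 1.84 and 1.74 in 313 regions at no gene end that lay within 100 bp of a protein-coding one. The median width of these sets was 648.5 and 540 bp, against 1009 bp over all one-gene regions. Their strength was not compared at matched width. Among those just inside, the region at Aldh, for an aldehyde dehydrogenase, ended on the base of the gene with the highest coordinate (1.48 and 1.58), and that at the importin gene Impbeta11 began on the one with the lowest (2.09 and 1.74). The regions at CG9068 (1.68 and 1.60) and Sox21a (3.55 and 3.28) reached 1 bp into the gene, and that at the neuropeptide gene Dh31 (2.45 and 2.33) 2 bp. Just outside, regions 1 bp from the end lay at CG34458 (1.61 and 1.38), dpr9 (5.53 and 5.97), the TOR complex gene Lst8 (1.37 and 1.44) and CG1637 (3.90 and 3.35), and one 2 bp away lay at Nubp1 (1.86 and 1.61).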

How the data were processed

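Open chromatin was profiled by ATAC-seq in MB nuclei from INTACT, with 2 biological replicates. Per the submitters' processing notes and the paper's methods, Trimmomatic (version 0.39) was used for trimming and Bowtie2 (version 2.4.1) for alignment to release 6. The authors shifted reads by 4 bp and -5 bp for the Tn5 cut and removed multiply aligned, mitochondrial and scaffold reads and PCR duplicates. Peaks came from MACS2 (version 2.1.2), run on each replicate alone with q set to 0.01, peaks of at least 50 bp, and gaps of up to 100 bp joined. The sources state no blacklist filter for these peaks. The deposited lists hold 17942 and 15248 peaks with 4 values each: fold enrichment as a ratio to the local background, the p-value and the q-value as -log10, and a score that follows the q-value. They also give the summit. Fold enrichment compares a region with its surroundings, so that an open surrounding lowers it, while -log10 q depends on depth. The paper's methods state the usable reads of each library, with more for replicate 1. Read counts per peak are not part of the lists, so that no interval could be given for the fold enrichment of a region.

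Peaks of the replicates that overlap by at least 1 bp were merged, and each region took the highest peak of each replicate. Ends of 17684 genes on 6 arms came from the RefSeq gene table of release 6, which has no strand, transcript positions or exons. Results on the transcription start and on promoter motifs, which had been planned, could therefore not be computed and were replaced by distances to the covered end, chosen after seeing the data. No sequence was used here. With 1 condition no test was made. The code was tested on simulated data. Python (version 3.11.15) with numpy (version 2.4.6), pandas (version 2.3.3) and matplotlib (version 3.10.9) was used.

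The members, lists and alternatives were chosen with earlier results of these data known. Genes were named by rule: the 10 strongest and 5 weakest regions, the 5 widest and 5 narrowest, the 5 longest and 5 shortest genes, the 5 largest differences between replicates, the genes with most regions, the 5 regions just inside and 5 just outside the rule, and the genes of the lists. Since 53 genes tied with 2 regions, those named among them, and all other genes, were chosen after their values were seen. Alternatives were reciprocal overlap of at least 50%, a -log10 q of at least 10, exactly 1 peak of each replicate, only protein-coding genes as ends, the mean over peaks, regions extended by 100 bp, -log10 q for the correlation, and each replicate alone. The supplementary tables of the paper were not used here. The Trx target genes of the study are reported only in part.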

Additional observations from a re-analysis of the deposited data

How the results depend on the processing

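Results were compared with alternatives 63 times. In 45 cases they stayed within the set limits, in 18 they moved, and no direction was reversed. The limit was the spread of the replicates, for counts 1.5 times, and for Pearson's r an interval computed from the number of regions. That interval takes regions as independent, which they are not, so that the comparisons of r are a description. With a reciprocal overlap of at least 50%, the median fold enrichment, averaged over the replicates, was 3.45 in place of 3.35 and its difference to regions at no gene end 1.101 in place of 1.21. A -log10 q of at least 10 gave 3.60 and 0.918, a median width of 1063 bp, a Pearson's r of 0.986 and a median gene length of 5095 bp. Extending regions by 100 bp gave 3.23 and 1.06. Pearson's r was 0.983 with the mean over the peaks of each replicate and 0.983 when -log10 q was correlated instead. Each replicate alone gave 2961 to 3261 regions, a difference of 1.42 to 1.49, a median width of 950 to 964 bp and a median gene length of 4428.5 to 4694.5 bp. The share of summits outside the gene, added after seeing the data, was 39.9% in replicate 1 alone and 43.5% with extended regions, against 41.9%, and their median position was -32 bp in replicate 1 alone, against -25.75 bp.

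No paired analysis was possible because the samples form a single group. The alternatives for the share of regions at the transcription start, the distance to it and the DRE motif were not run, since the gene table gives no strand and no sequences. The peak lists limit what can be said: regions called in only 1 replicate are left out, read counts per region are not part of the lists, and MACS2 sets width and fold enrichment from the same reads. With 2 replicates of 1 condition, the spread of a value is known only as the difference between them.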
